A study of Mus musculus with 15 samples.

Results

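The mouse complement genes C1qa, C1qb, C1qc, C3, C4b, C3ar1, C5ar1, Serping1 and Itgam were followed through the cells of the prefrontal cortex (PFC), 9 of the 26145 genes listed in the deposited single-cell count matrices. They were chosen by symbol, and all 9 were present. The study profiled dissociated PFC by 10x droplet single-cell RNA sequencing in 15 libraries of C57BL/6N male mice. Replicates pooled 2 mice each, so a p-value measures the spread between pools. Of these, 12 libraries came from adults (called P60 in the study, labelled 8 to 10 weeks) that had self-administered intravenous cocaine or saline, with 2 libraries for each treatment at each of 3 periods: maintenance of self-administration, 48 h of withdrawal and 15 days of withdrawal. The remaining 3 libraries came from untreated mice at postnatal day 21 (P21). By the methods there were fewer P21 mice than 3 separate pools need, so some P21 libraries may share animals, and the labels do not say which. The sample labels name the tissue NAc whereas the titles and the study name the PFC.

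The retained cells numbered 35360, 24822 at P60 and 10538 at P21, and each carried the authors' cell class and a finer cluster name (98 clusters at P60 and 44 at P21). Libraries held 8375172 to 42892922 UMIs (unique molecular identifiers, 1 per captured transcript molecule), with a median per cell of 3426 to 11334.5. The 4 libraries of 15 days withdrawal (libraries 9 to 12) held the most UMIs in all of the adult libraries. Any 2 libraries shared at most 40 cell barcodes. Levels are given as CPM, the UMIs of a gene in the summed cells of a class in a library, scaled to 1 common total. Because a 3′ tag is counted once per molecule, levels of different genes were set side by side without a division by length. In summed cells, fewer cells of a state and less RNA per cell cannot be told apart.

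Complement is a cascade of proteins that marks targets for removal by phagocytes. C1q, the recognition molecule of the classical pathway, is assembled from the A, B and C chains encoded by C1qa, C1qb and C1qc. Activated C1 cleaves C4 and leads to cleavage of C3, whose fragments are read by receptors on phagocytes. C3ar1 and C5ar1 encode the receptors of the peptides C3a and C5a, Itgam (CD11b) encodes the alpha chain of complement receptor 3, and Serping1 encodes the C1 inhibitor, which blocks the C1 proteases. In the brain microglia are the main known source of C1q, and C1q and C3 are known for their role in the removal of synapses during development.

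The 3 chain genes lie side by side on the minus strand of chromosome 4, within 18675 bases (4, 136436044 to 136454718, NCBIM37), in the order C1qb, C1qc and C1qa. Of the 9 genes, 6 had a promoter in the RefSeq table (GRCm38.p6), and C1qa, C4b and Serping1 did not. The 250 bases upstream of the annotated start were searched on both strands for GAGGAA (reverse TTCCTC), the core letters bound by PU.1, a transcription factor of the myeloid lineage, and for CGGAAG (reverse CTTCCG), a general ETS core. Of the 6 promoters, 3 held GAGGAA, against 23.3% of 32851 promoters of that length in the table, and none held CGGAAG, against 13.6%. A match is a description of the letters and not a bound site. The promoters of C3, C3ar1 and C5ar1 held neither motif, although C3ar1 and C5ar1 were expressed by the same cells as the chains in the data below. The 3 promoters with a match are shown, with GAGGAA or its reverse in capitals. C1qb lies at chr4:136886201-136886450 and C1qc at chr4:136892915-136893164, both on the minus strand, and Itgam lies at chr7:128062390-128062639 on the plus strand.
C1qb: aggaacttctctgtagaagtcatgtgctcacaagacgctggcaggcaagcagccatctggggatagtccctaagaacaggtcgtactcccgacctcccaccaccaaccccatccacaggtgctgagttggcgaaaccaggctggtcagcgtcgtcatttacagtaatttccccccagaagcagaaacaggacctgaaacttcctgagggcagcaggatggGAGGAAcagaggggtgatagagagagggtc
C1qc: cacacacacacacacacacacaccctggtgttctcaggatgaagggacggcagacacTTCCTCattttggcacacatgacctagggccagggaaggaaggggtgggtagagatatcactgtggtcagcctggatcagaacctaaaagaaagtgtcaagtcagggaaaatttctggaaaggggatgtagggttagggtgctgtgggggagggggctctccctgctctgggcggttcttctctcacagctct
Itgam: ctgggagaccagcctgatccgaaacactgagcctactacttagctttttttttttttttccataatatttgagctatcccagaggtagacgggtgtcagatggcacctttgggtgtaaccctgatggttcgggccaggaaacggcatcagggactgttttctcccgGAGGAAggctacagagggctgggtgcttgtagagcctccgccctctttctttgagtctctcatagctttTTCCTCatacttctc

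The first comparison asked which cells carried each transcript at P60. The choice of cell classes by their markers was the authors', so the levels below describe those classes and carry no test. The study named the microglial class by C1qa, itself a member. A high level of C1qa in microglia was therefore partly set by that choice, as for chains expressed with it.

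The C1q chains were among the most abundant transcripts of microglia, the resident phagocytes of the brain. Over the 12 P60 libraries (1449 microglia), C1qa stood at 13025 ± 2420 CPM (SD, n = 12, 9341 to 17547), C1qb at 11528 ± 2513 CPM (7507 to 15359) and C1qc at 9322 ± 1841 CPM (6432 to 11732). The next class was newly formed oligodendrocytes, at 54.5 ± 78.8 CPM for C1qa, 47.8 ± 62.8 CPM for C1qb and 54.1 ± 84.2 CPM for C1qc. Mean levels in microglia were therefore 239, 241 and 172 times those of the next class, and microglia stood above every other class in all 12 libraries. The rank of the next class and these folds depend on 5 of its 336 cells, without which its summed C1q went from 156 to 19.8 CPM, below endothelial cells (30.9), astrocytes (33.2) and oligodendrocyte precursors (38.2) treated alike. With all cells counted, endothelial cells (17.9 ± 10.7 CPM of C1qa), oligodendrocyte precursors and astrocytes followed with means whose SDs overlapped, and excitatory neurons were lowest for C1qa at 5.32 ± 2.00 CPM.

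The receptor genes were also highest in microglia, at levels lower than the chains. C3ar1 stood at 330 ± 53.1 CPM in microglia (216 to 411), C5ar1 at 327 ± 157 CPM (131 to 731) and Itgam at 253 ± 66.5 CPM (161 to 349). These were 151, 69.7 and 139 times the mean of the next class, newly formed oligodendrocytes, whose means rest on 4, 7 and 2 UMIs.

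**Figure D1:**
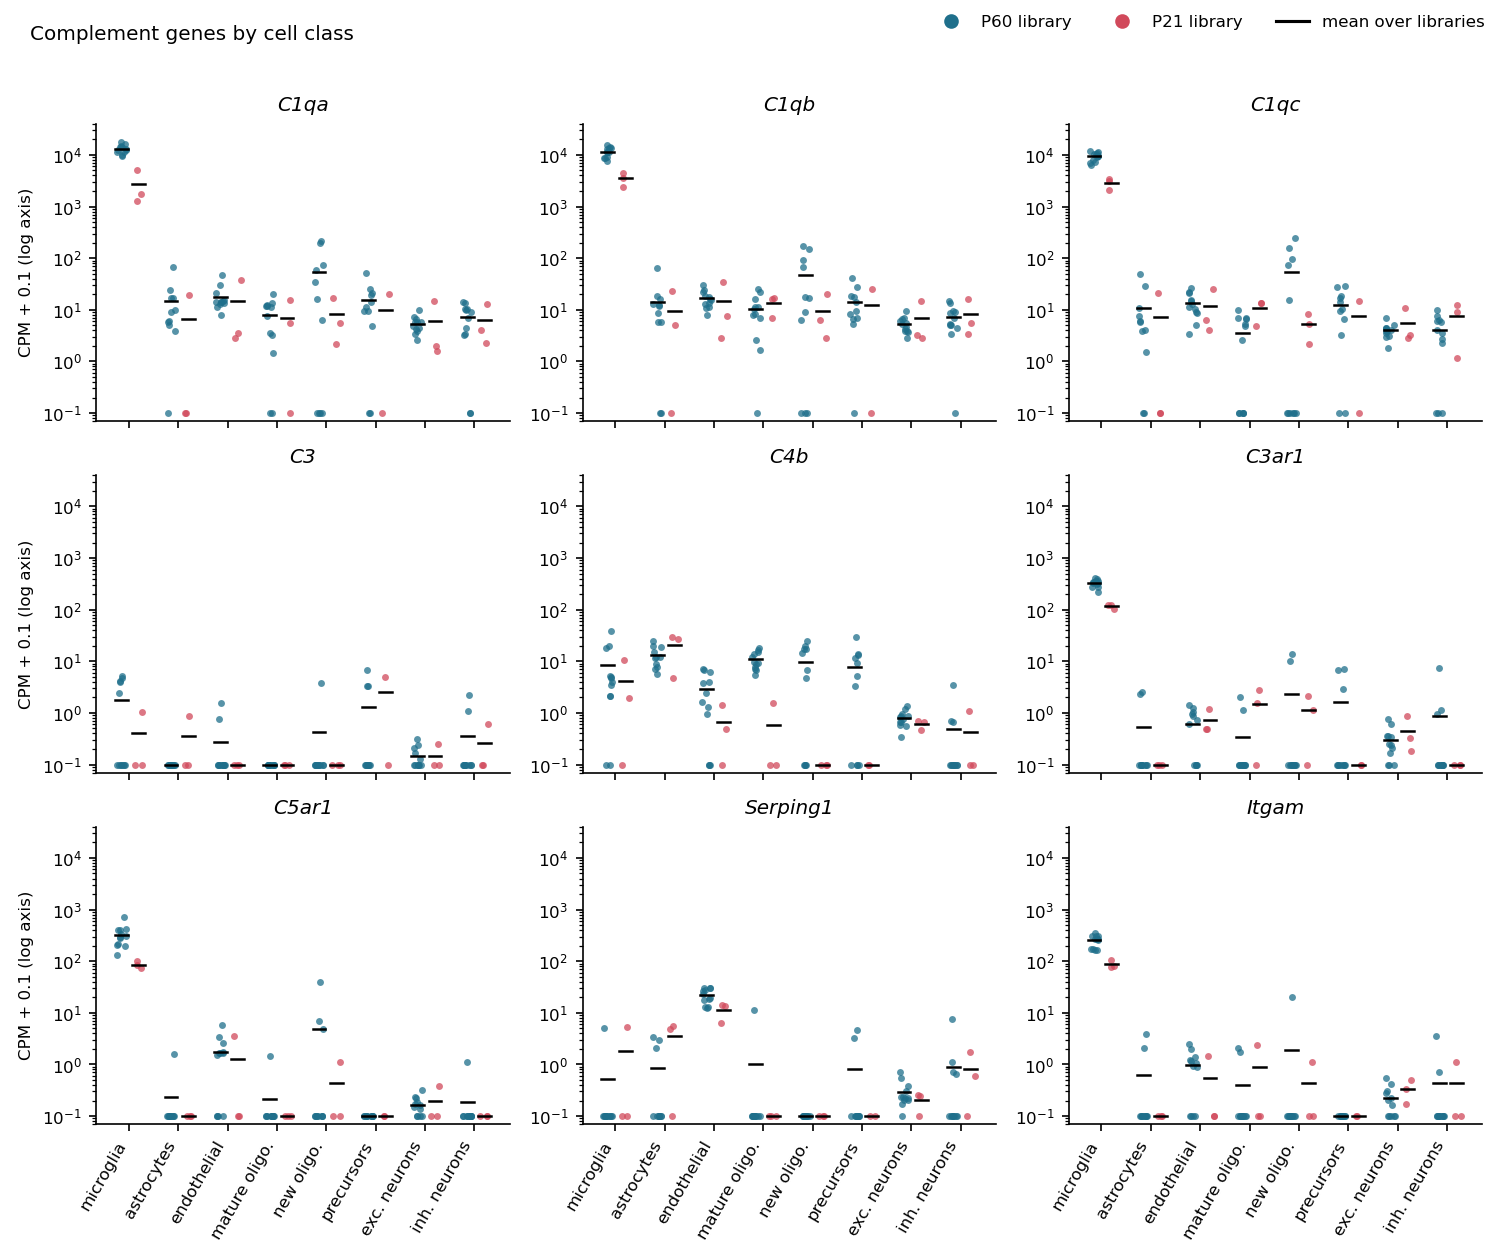
Levels of the 9 complement genes by cell class, 1 panel per gene. Each point is 1 library (blue P60, red P21), the bar is the mean of the libraries of that age, and the log axis gives CPM plus 0.1. The C1q chains, C3ar1, C5ar1 and Itgam stood highest in microglia, Serping1 in endothelial cells, and C4b was spread over glia at a low level.

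Serping1 was the transcript of another cell class. Endothelial cells held 21.8 ± 7.08 CPM (SD, n = 12, 12.6 to 30.7, 341 UMIs in 3566 cells), 23.7 times the highest mean of the other classes, mature oligodendrocytes. That mean rests on 2 UMIs, so the fold is rough. Microglia held 2 Serping1 UMIs in all and astrocytes 6. A Serping1 UMI was seen in 7.66% of endothelial cells (exact 95% confidence interval 6.80 to 8.58%, which covers counting error only, as do all intervals and floors here).

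C4b was low and shared among glia. Astrocytes held 13.01 ± 6.02 CPM (SD, n = 11, 5.68 to 25.0, 70 UMIs), mature oligodendrocytes 10.8 ± 4.11 CPM (n = 12, 5.45 to 17.7, 58 UMIs), newly formed oligodendrocytes 9.52 ± 9.33 CPM, microglia 8.54 ± 11.4 CPM and oligodendrocyte precursors 7.74 ± 8.94 CPM. None of these neighbours differed from the next beyond their spread. Excitatory neurons held 0.704 ± 0.276 CPM, below every astrocyte library. A C4b UMI was seen in 4.34% of astrocytes and 3.49% of mature oligodendrocytes. C4a, a near-identical copy of C4b next to it in the genome, has no row in the gene list, so how reads shared by both copies were counted is not known and C4b values are uncertain in that respect.

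C3, the central component of the cascade, was close to the limit of detection in every class. Microglia held 7 C3 UMIs (1.66 ± 2.14 CPM, 0 in 7 of 12 libraries), excitatory neurons 9 UMIs in 14452 cells, and endothelial cells and oligodendrocyte precursors 4 UMIs each. No C3 UMI was seen in 1498 astrocytes, which allows a share of up to 0.200% of cells with a UMI, nor in 1578 mature oligodendrocytes, which allows up to 0.190%. C3 is thus reported by its counts only.

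Within single microglia the chains were seen together. Among the 1448 P60 cells in microglial clusters, 97.7% held a UMI of all 3 chains. A C3ar1 UMI was seen in 54.5%, a C5ar1 UMI in 44.3% and an Itgam UMI in 49.9%, at a median depth of 3213.5 UMIs per cell. All 3 receptor genes were seen in 12.6% and at least 1 of them in 86.7%. At P21 (182 cells in microglial clusters) the shares were 96.7% for the 3 chains, 46.2% for C3ar1, 28.6% for C5ar1 and 35.2% for Itgam, at a median of 2851 UMIs. Shares of cells with a UMI depend on depth, so the ages were not compared on them.

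The P60 microglia were divided by the authors into 8 clusters, and the 3 chains and C3ar1, C5ar1 and Itgam varied among them by less than 3 times. Over the pooled cells of each cluster, C1qa ran from 7921 CPM in Microglia_1 to 15579 CPM in Microglia_8, C1qb from 7283 CPM in Microglia_1 to 14134 CPM in Microglia_7, and C1qc from 5842 CPM in Microglia_1 to 11080 CPM in Microglia_7. C3ar1 ran from 169 CPM in Microglia_1 to 449 CPM in Microglia_7, C5ar1 from 252 CPM in Microglia_3 to 489 CPM in Microglia_7, and Itgam from 209 CPM in Microglia_1 to 308 CPM in Microglia_6. These are pooled values of cells that were clustered on their expression and carry no test.

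Microglia_1, lowest for 5 of these 6 genes, held cells of more than 1 kind. It carried Plac8 at 1548 CPM, the neutrophil genes S100a8 and S100a9 at 958 and 476 CPM, the monocyte genes Ccr2 and Ly6c2 at 259 and 243 CPM, and the neuronal gene Snap25 at 866 CPM. Of its 128 cells, 29 (22.7%) held under 10 C1q UMIs, out of 36 such cells in the whole class. In those 36 cells the summed monocyte and neutrophil markers stood at 11843 CPM against 8.80 CPM in the other 1413 cells of the class, and the microglial markers at 10880 against 40585 CPM. Without them the rest of Microglia_1 held 9923 CPM of C1qa, 9113 CPM of C1qb and 7322 CPM of C1qc, with neuronal markers at 1803 CPM. Pf4, a gene of border macrophages, stood at 559, 363 and 413 CPM in Microglia_1, Microglia_2 and Microglia_4, and Snap25 was highest in Microglia_3 at 1371 CPM. The part of these other cells in the members' levels was not tested.

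The few C3 and C4b UMIs of the microglial class were not spread evenly over its cells. Of the 7 cells with a C3 UMI, 6 were in Microglia_1 and 6 held under 10 C1q UMIs. A monocyte or neutrophil marker was seen in 6 and a marker of border macrophages in 6. The 4 endothelial C3 UMIs came from 2 cells of Endo_3, and both carried markers of both kinds. Of the 18 cells with a C4b UMI, 10 were in Microglia_2 (25.8 CPM) and none carried a monocyte or neutrophil marker. A marker of border macrophages was seen in 12, and such markers were found also in Microglia_1 and Microglia_4. The part of these other cell types in the C3 and C4b levels was not tested.

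Serping1 was concentrated in 1 endothelial cluster. Endo_2 held 91.3 CPM, against a median of 12.0 CPM over 13 endothelial clusters and 1.72 CPM in the lowest, Endo_7. Endo_2 also carried Rgs5, a pericyte gene, at 5077 CPM, the smooth muscle genes Acta2 and Myh11 at 935 and 275 CPM, and Dcn, a fibroblast gene, at 93.7 CPM. Each of these was lower in Endo_3 and Endo_12, where Rgs5 stood at 2397 and 1295 CPM. Pdgfrb, another pericyte gene, was also lower there, at 187 and 142 CPM against 362 CPM in Endo_2. The pericyte genes Kcnj8 and Abcc9 went the other way. Kcnj8 and Abcc9 stood at 94.8 and 71.6 CPM in Endo_2, 151 and 101 CPM in Endo_3, and 164 and 82.2 CPM in Endo_12. The endothelial gene Flt1 stood at 2738 CPM in Endo_2, beside 2973 and 2588 CPM in Endo_3 and Endo_12. Ly6c1 likewise lay between them, at 5056 CPM beside 4795 and 5292 CPM. Other endothelial genes were lower in Endo_2. Cldn5 stood at 1257 CPM against 1526 and 2683 CPM, Slco1a4 at 664 against 1182 and 1405 CPM, and Pecam1 at 284 against 372 and 367 CPM. The genes whose levels over 82 P60 clusters were most like those of Serping1 were Tbx18 (Pearson r = 0.87), Ecm2 (0.86) and Notch3 (0.86). These correlations are descriptions over clusters of the same libraries. C4b stood highest in Microglia_2, Astro_3 (26.7 CPM), Oligo_8 (25.3 CPM, but 3 UMIs in 39 cells), OPC_2 (21.9 CPM) and Endo_12 (20.5 CPM, 30 of the 50 endothelial C4b UMIs).

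**Figure D2:**
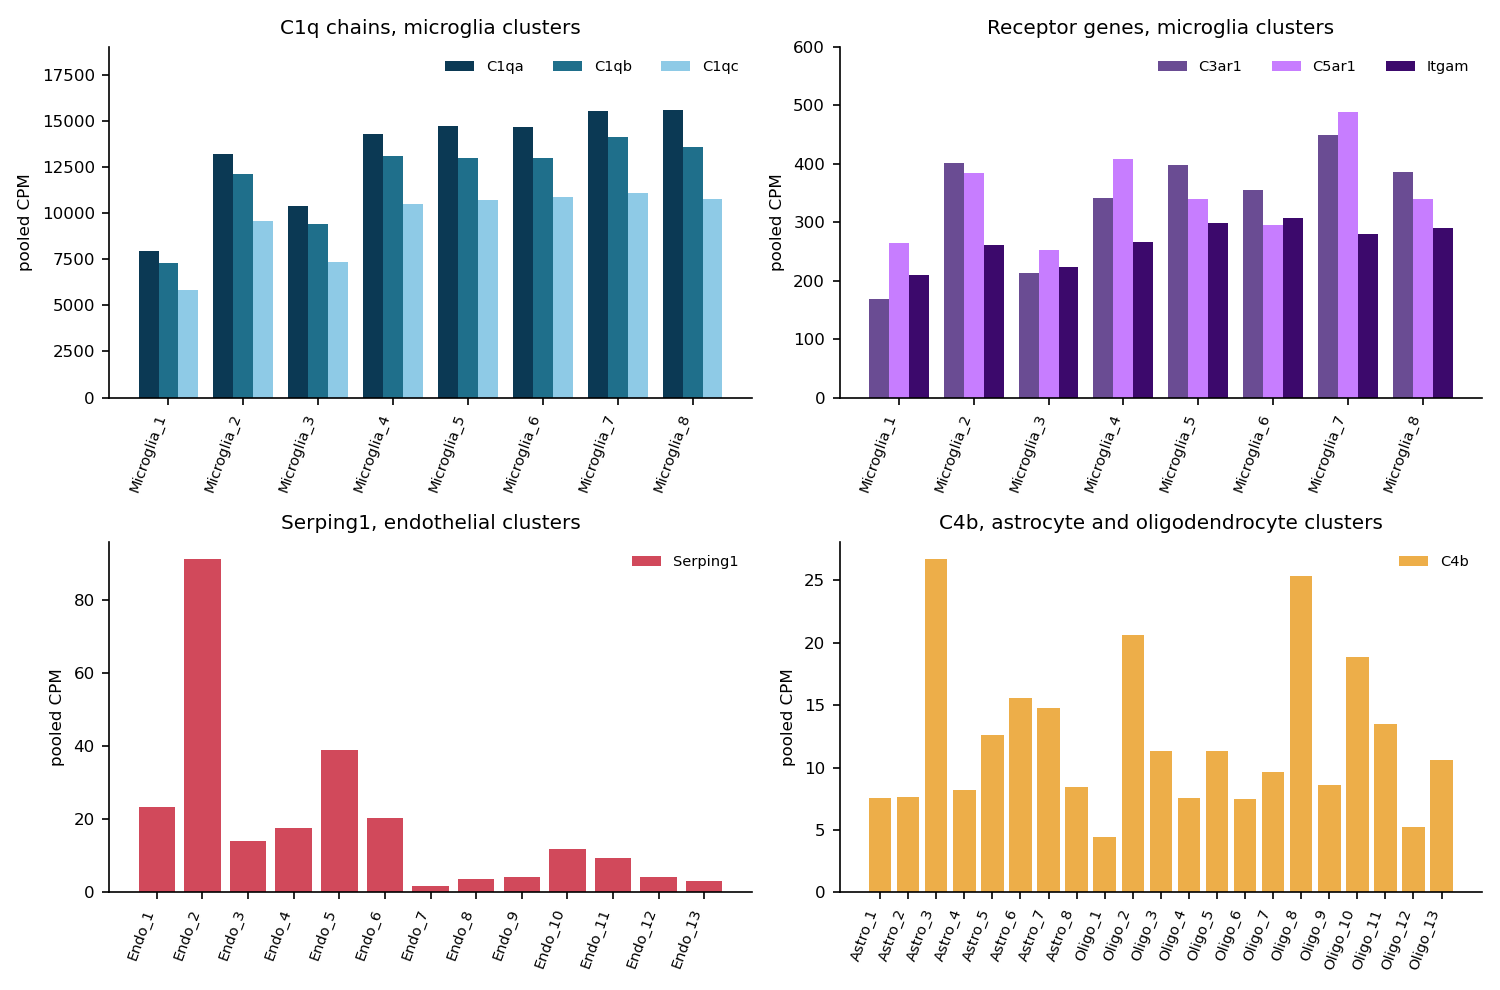
Levels by finer cluster at P60. Bars give CPM over the pooled cells of each cluster on axes that start at 0, for the C1q chains and the receptor genes over 8 microglial clusters, Serping1 over 13 endothelial clusters and C4b over astrocyte and oligodendrocyte clusters. Microglia_1 is lowest for the chains and Endo_2 stands above the other endothelial clusters for Serping1.

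Over the same 82 clusters and 11318 genes, the gene most like C1qa was C1qb (r = 0.99), followed by C1qc (0.98) and Gpr34 (0.97). After the other chains, C1qb was most like Ly86 (0.97) and C1qc most like Ctss (0.97), which encodes the lysosomal protease cathepsin S. C3ar1 was most like BC035044 and Gpr84 (0.96 each), C5ar1 most like Dock2 (0.98) and Itgam most like Lrch4 (0.98). C4b was most like Aldh6a1 (0.76) and C3 most like Hp (0.81), which encodes haptoglobin. For C3 the value rests on few UMIs.

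The second question was how much C1q RNA was counted outside microglia, above all in neurons. In droplet data, RNA released from broken cells can be captured with any cell. Its level in droplets without a cell was not measured here. The sum of the 3 chains stood at 14.4 ± 4.81 CPM in P60 excitatory neurons (SD, n = 12, 7.01 to 26.2), which was 0.0455 ± 0.0229% of the microglial level of the same library (0.0207 to 0.102%). In inhibitory neurons it stood at 18.005 ± 9.91 CPM, or 0.0578%. The share was 0.0684% in mature oligodendrocytes, 0.134% in oligodendrocyte precursors, 0.137% in astrocytes, 0.154% in endothelial cells and 0.511% in newly formed oligodendrocytes. Other microglial markers in excitatory neurons stood at 0.116% of their microglial level, above the C1q share.

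In the neurons the C1q UMIs were scattered. Of 14452 excitatory neurons, 17.6% held a C1q UMI as counted (median 13616 UMIs per cell), against 7.16% of mature oligodendrocytes (median 3626). After thinning every cell to 2000 UMIs, 3.22% and 4.19% held one, so the order of the counted shares followed depth. No excitatory neuron held 10 C1q UMIs or more, and the highest held 8. The proportions of the chains were set beside those of microglia without a test. C1qa, C1qb and C1qc made up 36.6 ± 4.44, 35.9 ± 3.52 and 27.5 ± 4.50% of the C1q UMIs of excitatory neurons, and 38.6 ± 1.53, 33.9 ± 1.11 and 27.5 ± 0.711% of those of microglia. The source of the neuronal C1q UMIs was not tested.

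Few cells held much of the C1q of some other classes. In newly formed oligodendrocytes, 5 of 336 cells held 88.6% of the C1q UMIs, and microglial markers stood at 11650 CPM in those cells. With cells of 10 or more C1q UMIs left out, the class went from 0.511 to 0.0655% of the microglial level. Endothelial cells (17 cells left out, which held 38.5% of the UMIs) went from 0.154 to 0.0983%, astrocytes (5 cells) from 0.137 to 0.111% and oligodendrocyte precursors (1 cell) from 0.134 to 0.1203%. These last 3 classes remained above the 0.0455% of excitatory neurons, which had no such cell. Counted per cell and not set against depth, newly formed oligodendrocytes went from 0.940 to 0.109 UMIs and excitatory neurons stood at 0.203 UMIs. Whether the cells left out were doublets with microglia was not tested.

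Across the 12 P60 libraries no correlation was detected between the C1q level of excitatory neurons and that of their library, which does not show that none exists. Pearson's r was -0.32 (permutation test, p = 0.323) and Spearman's rho was -0.21 (permutation test, p = 0.514), 2 measures of 1 relation, n = 12. Benjamini-Hochberg adjustment over these 2 values leaves neither under 0.05. Without libraries 2 and 6, which lay farthest from the median, r was -0.32 (permutation test, p = 0.382). Leaving out each library in turn gave r of -0.47 to -0.19.

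The third comparison set the 3 P21 libraries against the 6 saline P60 libraries, class by class, with edgeR's quasi-likelihood test on summed counts and Benjamini-Hochberg adjustment over all genes tested. A gene was called when its adjusted p was under 0.05 and its change over 1.5-fold. No library holds both ages and the labels name no batch, so library preparation and age cannot be told apart. By the methods the saline P60 mice had also been food restricted, trained, fitted with a jugular catheter and given saline sessions. The untreated P21 mice had not, so these procedures cannot be told apart from age either. If P21 libraries share animals, p-values that count 3 of them are too small. With P21 libraries 2 and 3 summed as 1, the number of members called was as with 3 libraries in each of the 5 classes. Other pairs were not summed, so this does not cover animals shared with P21 library 1.

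By the authors' classes, the 6 members that passed the low-count filter in microglia were all higher at P60. C1qa stood at 5048, 1764 and 1285 CPM in P21 libraries 1, 2 and 3, C1qb at 4533, 3577 and 2369 CPM, and C1qc at 3364, 3121 and 2104 CPM. C3ar1 stood at 126, 122 and 104 CPM, C5ar1 at 99.1, 85.2 and 72.6 CPM, and Itgam at 106, 79.1 and 77.7 CPM. Each P21 value was below every one of the 12 P60 libraries. The log2 change (P60 over P21) was 2.64 ± 0.468 for C1qa (SE, edgeR adjusted p = 0.00174), 2.11 ± 0.340 for C1qb (0.00124), 2.11 ± 0.322 for C1qc (0.00116), 1.99 ± 0.236 for C3ar1 (0.000506), 2.21 ± 0.351 for C5ar1 (0.00122) and 1.83 ± 0.315 for Itgam (0.00154). The call was common among all genes, at 42.4% of 4478 tested.

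That difference did not hold once the finer cluster names were taken into account. Of the 329 P21 cells of the microglial class, 147 (44.7%) carried the cluster name of another class, 64 of them an excitatory neuron cluster. Those 147 cells had a median of 6503 UMIs against 2851 in the other 182, C1q at 5207 against 25049 CPM, and neuronal markers at 3591 against 676 CPM. Over the whole series 492 cells had such a mismatch, and 459 of them were P21 cells, whose names the authors had assigned by their correlation with P60 clusters.

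With microglia taken by cluster name (149, 21 and 12 cells in the 3 P21 libraries), C1qa stood at 10426, 3943 and 3469 CPM, C1qb at 9248, 7720 and 6346 CPM, and C1qc at 6754, 6817 and 5597 CPM. C3ar1 stood at 265, 333 and 276 CPM, C5ar1 at 212, 143 and 197 CPM and Itgam at 198, 143 and 158 CPM. For C3ar1 and C5ar1 these lay within the range of the 12 P60 libraries (216 to 411 and 131 to 731 CPM). Against the 6 saline libraries (281 to 411 and 199 to 428 CPM), only the 333 and the 212 lay within. None of the 6 was then called, against 0.726% of 3993 genes. The log2 changes were 1.196 ± 0.379 for C1qa (edgeR adjusted p = 0.202), 0.67 ± 0.278 for C1qb (0.383), 0.67 ± 0.267 for C1qc (0.352), 0.42 ± 0.236 for C3ar1 (0.573), 0.77 ± 0.345 for C5ar1 (0.420) and 0.55 ± 0.318 for Itgam (0.581). All 6 remained on the higher side at P60, and a p that misses the threshold does not show that the ages were alike. Leaving out the mismatched cells of both ages gave the same values for these genes.

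**Figure D3:**
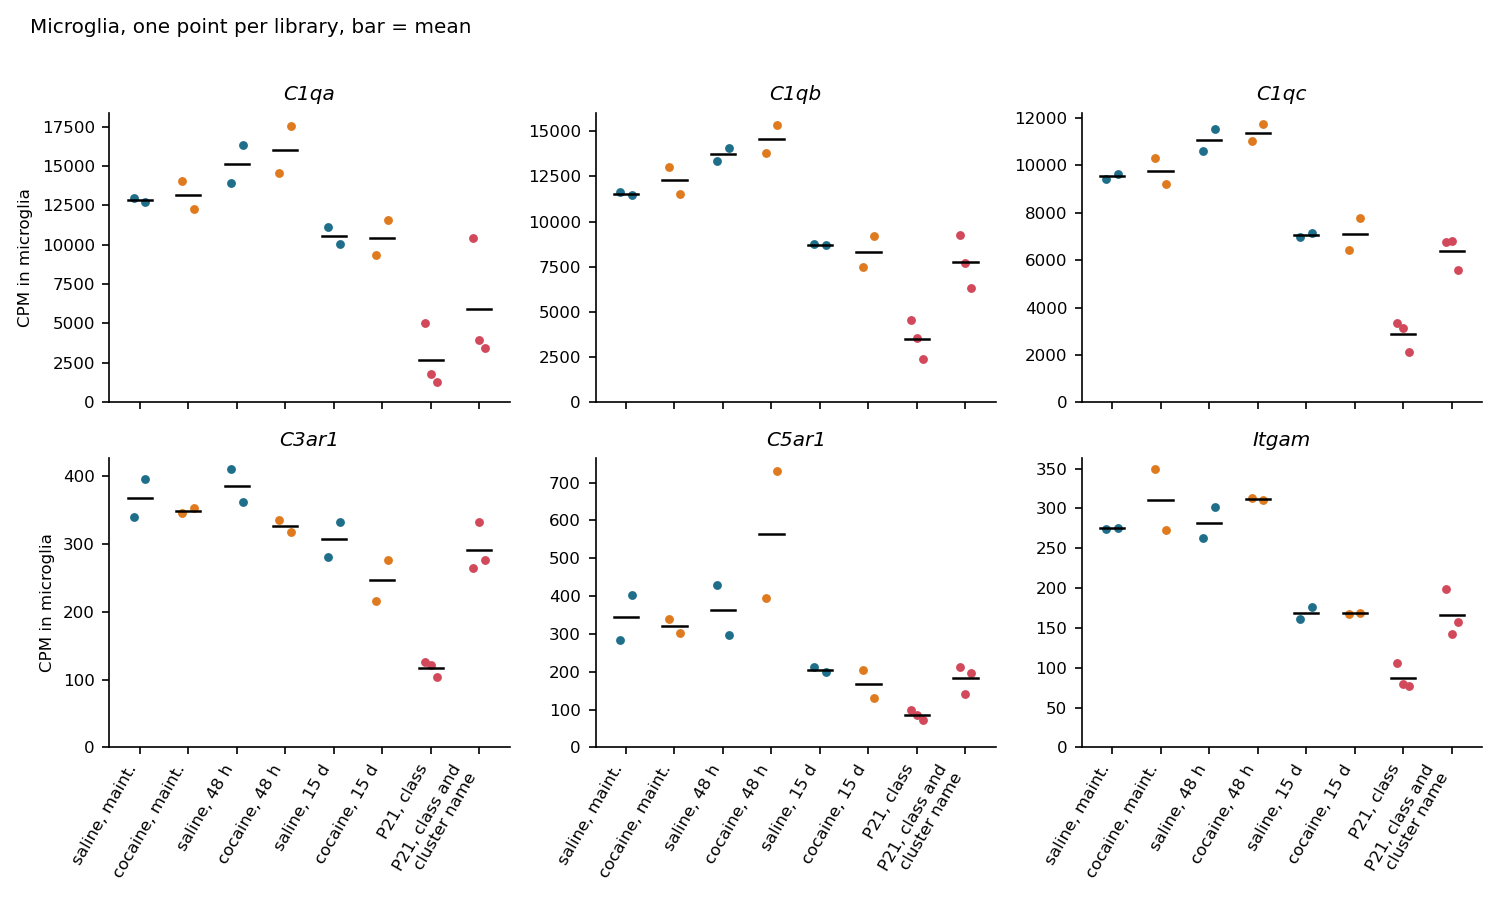
Members expressed in microglia, by group, 1 panel per gene. Each point is the CPM of 1 library (2 per adult group, 3 at P21), with P21 microglia shown by the authors' class and again by class and cluster name together. The 4 libraries of 15 days withdrawal lie below the other adult libraries for 5 genes and overlap them for C3ar1, and the P21 points rise when the cluster name is also used.

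In P21 libraries 2 and 3, C1qa was low against the other chains. C1qa UMIs per C1qb UMI in microglia were 0.493 and 0.543 there, against 1.11 in P21 library 1 and 1.04 to 1.27 in the 12 P60 libraries. The same ratio in all other cells of these libraries was 0.607 and 0.538, against 0.992 in P21 library 1 and 0.786 to 1.23 at P60. The low ratio was thus seen in both sets of cells of the same 2 libraries. C1q per 100 microglial marker UMIs was 95.1, 66.1 and 70.6 in the 3 P21 libraries and 78.9 to 97.9 at P60. P21 library 1 also stood apart in C1q outside microglia, with C1qa at 37.0 CPM in endothelial cells against 3.53 and 2.76 CPM in P21 libraries 2 and 3, and at 14.7 CPM in excitatory neurons against 1.46 and 1.87 CPM.

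**Figure D4:**
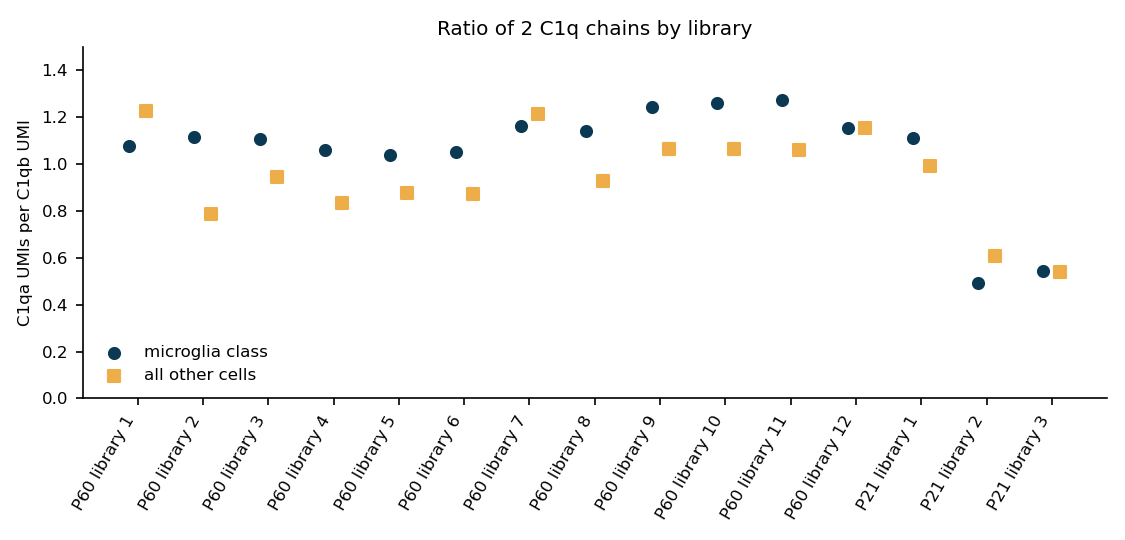
C1qa UMIs per C1qb UMI in each library, in the microglial class and in all other cells. The points of P21 libraries 2 and 3 lie between 0.493 and 0.607 in both sets of cells, and all others lie between 0.786 and 1.27.

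C4b in mature oligodendrocytes was higher at P60 in counts that the low-count filter left out. The 6 saline P60 libraries stood at 6.57 to 16.5 CPM (median 9.77), and the P21 libraries at 1.47, 0 and 0 CPM, 3 UMIs in 534 cells. The groups did not overlap. Without the filter the log2 change was 3.07 ± 0.829 (SE, edgeR adjusted p = 0.00475), at a background of 7.55% of 15289 genes called, and with the filter it was not tested. A fitted change at counts this low depends on the prior count of the fit. In newly formed oligodendrocytes no C4b UMI was seen in 528 P21 cells (median 3003 UMIs), which allows a share of up to 0.568% of cells with a UMI. At P60, 22 C4b UMIs were seen in 336 cells of that class, at a median of 5543.5 UMIs, and the ages were not compared on these shares. Astrocytes showed no such order, with C4b at 4.69, 27.2 and 29.2 CPM at P21 and 7.14 to 18.9 CPM (median 8.82) in 5 saline P60 libraries.

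Serping1 in endothelial cells stood at 13.7, 14.1 and 6.31 CPM at P21 and at 12.6 to 30.01 CPM (median 21.04) in the 6 saline P60 libraries. The log2 change was 0.85 ± 0.298 (SE, edgeR adjusted p = 0.0659), so it was not called, at a background of 13.4% of 10599 genes. With all 12 P60 libraries it was 0.85 ± 0.275 and was called (edgeR adjusted p = 0.0319). The C1q chains in endothelial cells changed by 0.10 to 0.42 and none was called. In excitatory neurons the chains changed by -0.40 to -0.10 and none was called (edgeR adjusted p = 0.546 to 0.929), at a background of 18.1% of 13104 genes. With classes taken from the cluster name, which moves the mismatched P21 cells into these classes, the direction turned in endothelial cells (C1qb -1.90 and C1qc -1.79, both called). C1qb and C1qc were then also called lower in excitatory neurons (-1.72 and -1.81) and mature oligodendrocytes (-3.04 and -4.28). No member passed the filter in astrocytes or mature oligodendrocytes, where 7.63 and 16.5% of genes were called. Without P21 library 1, which held the high endothelial and neuronal C1q, C1qa (2.67), C1qb (1.70), C1qc (1.60) and C4b (3.80) were called higher at P60 in endothelial cells and C1qa (1.88) in excitatory neurons, and without library 2 Serping1 was called in endothelial cells (0.96, edgeR adjusted p = 0.0389). The background shares in this paragraph are those of the main fits. Those of the alternative fits are not given here, so their calls stand without a background.

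The fourth comparison asked whether cocaine changed the members at each period. No member was called in 16 comparisons of cocaine with saline (4 non-neuronal classes, 3 periods and all periods together) by edgeR, nor by DESeq2. An unadjusted p under 0.05 was seen 5 times, for C5ar1 in microglia at 48 h, for C1qc in astrocytes at maintenance, for C1qa and C1qc in astrocytes at 15 days and for C1qc in endothelial cells over all periods. The background was as low. At maintenance, 48 h, 15 days and over all periods, 0, 0, 0.0135 and 0% of genes were called in astrocytes, 0, 0.0199, 0.139 and 0% in endothelial cells, and 0, 0, 0.264 and 0.0466% in mature oligodendrocytes. In microglia the background was 0.038% at maintenance and 0 at the other periods and over all periods, with 153 to 218 of 5258 genes at an unadjusted p under 0.05. The test of a difference between periods called no member in any of the 4 classes, nor any other gene.

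In microglia the changes were small. Over all periods the log2 change (cocaine over saline) was 0.05 ± 0.097 for C1qa, 0.05 ± 0.093 for C1qb, 0.04 ± 0.094 for C1qc, -0.21 ± 0.117 for C3ar1, 0.10 ± 0.168 for C5ar1 and 0.12 ± 0.126 for Itgam. The values by period ran from -0.36 for C3ar1 at 15 days to 0.61 ± 0.271 for C5ar1 at 48 h (edgeR adjusted p = 1). For that gene the cocaine libraries at 48 h stood at 394 and 731 CPM and the saline libraries at 428 and 297 CPM, so the groups overlapped.

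Serping1 in endothelial cells changed by -0.08 at maintenance, 0.13 at 48 h and 0.04 at 15 days, and by 0.03 ± 0.265 over all periods (edgeR adjusted p = 0.997). C4b in astrocytes changed by -1.16 (against saline library 2 alone), 0.91 and 1.10, and by 0.28 ± 0.501 over all periods. The C1q chains in astrocytes gave the widest values, from -2.43 ± 0.868 for C1qc at 15 days (unadjusted p = 0.0100, edgeR adjusted p = 0.782) to 4.54 ± 3.42 for C1qc at 48 h (edgeR adjusted p = 0.995), on 76 C1qc UMIs in all 1498 cells. In endothelial cells C1qc changed by -0.71 ± 0.317 over all periods (unadjusted p = 0.0387, edgeR adjusted p = 0.818). In mature oligodendrocytes only C1qb passed the filter, and it was not called. For C1qa in astrocytes at 15 days (-2.30 ± 0.978, edgeR adjusted p = 1) there was a call without the filter on low counts (-2.31, edgeR adjusted p = 0.0257). Without library 11 the log2 change was -3.10, but saline library 12 was then alone in its group. Library 12 lay far from the other saline libraries for this gene, at 66.4 CPM against 16.9 CPM in the next.

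Both treatments together, the 6 members tested in microglia were lower at 15 days of withdrawal than at the 2 earlier periods. This comparison was added after the levels by period had been seen. C1qa stood at 9341, 11566, 11138 and 10017 CPM in libraries 9 to 12, against 12240 to 17547 CPM (median 13961) in the 8 earlier libraries, and C1qb at 7507, 9174, 8743 and 8682 CPM against 11454 to 15359 CPM (median 13192). C1qc stood at 6432 to 7790 CPM against 9213 to 11732 CPM, C5ar1 at 131 to 212 CPM against 285 to 731 CPM, and Itgam at 161 to 176 CPM against 263 to 349 CPM. For these 5 genes the groups did not overlap, and for C3ar1 they did (216 to 332 against 317 to 411 CPM). C4b, which did not pass the filter on low counts in microglia (24 UMIs) and was not tested, had the higher mean at 15 days, at 16.6 ± 16.4 CPM (SD, n = 4) against 4.52 ± 5.90 CPM (n = 8), and the groups overlapped.

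By edgeR all 6 were called lower at 15 days, at a background of 29.6% of 5258 genes (988 higher and 570 lower). The log2 change was -0.68 ± 0.106 for C1qa (SE, edgeR adjusted p = 4.98e-05), -0.85 ± 0.103 for C1qb (4.55e-06), -0.80 ± 0.104 for C1qc (8.27e-06), -0.63 ± 0.1301 for C3ar1 (0.000738), -1.29 ± 0.191 for C5ar1 (7.95e-05) and -1.05 ± 0.143 for Itgam (1.36e-05). C3ar1 fell short of the 1.5-fold limit without library 9 (-0.57), with DESeq2 (-0.58) and with DESeq2 size factors (-0.58), so that 5 members were called in each. Within the 8 microglial clusters, C5ar1 and Itgam were lowest at 15 days in 8 of 8, C1q in 7 of 8 and C3ar1 in 5 of 8, which are pooled values of clusters that share libraries.

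Other measures moved with the same libraries. The summed microglial markers in microglia stood at 26240 to 29876 CPM at 15 days against 39112 to 46711 CPM before, and the neuronal markers at 1245 to 2261 against 108 to 858 CPM. Set against the microglial markers, C1q was 87.8 to 97.8 UMIs per 100 marker UMIs at 15 days and 78.9 to 97.9 before, so the ranges overlapped. Per 1000 marker UMIs, C3ar1 was 8.22 to 11.3 against 6.95 to 9.23, C5ar1 was 4.38 to 7.76 against 6.35 to 16.04, and Itgam was 5.66 to 6.39 against 5.67 to 8.33, with overlap for each. Of the barcodes with 10 or more C1q UMIs, 251 were retained by the authors and 607 were not in the 4 libraries of 15 days, against 1190 and 212 in the 8 earlier libraries, so the 15-day values rest on the smaller part of such barcodes. The part of these measures in the fall was not tested. The mice at 15 days were also older at collection and their libraries were those numbered 9 to 12, which cannot be told apart from the period.

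In endothelial cells the direction was the opposite for C1q. C1qa was 1.01 ± 0.285 (log2, edgeR adjusted p = 0.0222) and C1qc 0.86 ± 0.291 (0.0475) higher at 15 days, while C1qb was not called (0.58 ± 0.220, 0.0728) and Serping1 stood at -0.14 ± 0.265, at a background of 11% of 10063 genes. C1qa stood at 14.1, 30.01, 20.7 and 47.2 CPM in libraries 9 to 12, against 7.78 to 15.6 CPM before, so library 9 lay within the earlier range, and libraries 10 and 12 lay far from the others of their treatment. The 17 endothelial cells with 10 or more C1q UMIs held 38.5% of the C1q UMIs of the class. Without them the summed C1q stood at 32.0, 36.3, 28.2 and 64.2 CPM in libraries 9 to 12, against 16.1 to 34.8 CPM before, and the groups overlapped. No test was run without them. Without libraries 1, 2, 3, 4, 10 or 12 in turn no chain was called, without library 6 there was 1 call and without library 11 there were 3. In astrocytes (20.7% of 7417 genes called) no member was called, but C1qb was without library 6 (2.90) or the filter (1.76), and C1qb (2.18) and C1qc (2.57) were without library 11. No member was called in mature oligodendrocytes (11.7% of 6437).

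Of 49 other genes of the complement pathway, fixed as a list with earlier results of these data known, 48 were in the gene list and 20 reached 10 CPM in at least 1 class at P60. By role these were 2 of 12 genes of recognition and its proteases, 1 of 3 of the alternative pathway, none of 7 of the terminal pathway, 12 of 18 regulators and 5 of 8 receptors. Regulators were the most abundant. Clu, which encodes clusterin, stood at 5588 ± 916 CPM in astrocytes (SD, n = 11), Vtn, which encodes vitronectin, at 3240 ± 573 CPM in endothelial cells (n = 12) and Cd59a, an inhibitor of the membrane attack complex, at 251 ± 57.7 CPM in endothelial cells. In microglia Itgb2, the beta chain that pairs with Itgam, stood at 242 ± 45.2 CPM and Gpr77, the second C5a receptor, at 24.5 ± 8.35 CPM.

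Between ages, 3 of 17 pathway genes tested in endothelial cells were called higher at P60 and 1 lower, with a median log2 change of -0.41 against 0.00 over all genes and calls for 13.4% of all genes. Among them Vtn rose by 0.90 ± 0.174 (edgeR adjusted p = 0.00313) and Cd59a by 0.86 ± 0.162 (0.00277), while Cd93 was lower (-0.85 ± 0.115, 0.000270). In mature oligodendrocytes 3 of 6 were called higher (Clu 1.37, Sez6l2 1.39 and Cr1l 1.03) and none lower, where 16.5% of all genes were called. In excitatory neurons 3 of 21 were called higher (C1ra 1.78, Cd59b 1.23 and Cd59a 0.78) and 2 lower (Sez6 -0.67 and Cd93 -1.75), where 18.1% of all genes were called. In astrocytes 1 of 9 was called, Vtn at -2.09, where 7.63% of all genes were called. Of the 405 P21 cells of this class, 99 carried the cluster name of another class, 18 of them endothelial, where Vtn was highest, and the part of these cells in the call was not tested. In microglia by class 6 of 10 were called higher and 1 lower, beside 42.4% of all genes and under the same mismatch of class and cluster name as the members. Cocaine gave no call in this list at any period in microglia, astrocytes, endothelial cells or mature oligodendrocytes. Neurons and the other classes were not tested for cocaine.

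At 15 days against the earlier periods, 3 of 12 pathway genes tested in microglia were called lower (Cr1l at -1.33 and Itgb2 at -0.60 among them) and 3 higher (Clu 1.43, Sez6l 2.77 and Sez6l2 1.95), where 29.6% of all genes were called. In excitatory neurons Sez6l stood at 53.9 ± 4.72 CPM and Sez6l2 at 155 ± 18.3 CPM (SD, n = 12), and Sez6l2 stood highest in mature oligodendrocytes at 1228 ± 387 CPM. In astrocytes 7 of 11 were called higher and 2 lower, and the higher ones included Sez6l (4.50 ± 0.773) and Sez6l2 (3.38 ± 0.494). Over all genes 20.7% were called in astrocytes, 1121 higher and 411 lower. In endothelial cells 7 of 16 were called higher, Clu (1.19 ± 0.118) among them, and 1 lower, where 11% of all genes were called, 978 higher and 133 lower. In mature oligodendrocytes 2 of 7 were called higher and 2 lower, where 11.7% of all genes were called, 560 higher and 191 lower. The part of RNA from other cells in these calls was not tested.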

How the data were processed

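Single-cell RNA sequencing counts from 15 libraries of mouse PFC were used. Per the labels and the study's methods, the authors ran Cell Ranger against mm9 and filtered cells, removed double droplets by their number of genes and by inspection after clustering, and clustered with Seurat (2.1.0). The deposited values are UMI counts per gene and barcode, with a table of retained cells, their classes and clusters and the fraction of mitochondrial UMIs that the authors computed. From these, 143 genes of ribosomal proteins and 13 of mitochondria were dropped (25989 kept), counts were summed per library and class with at least 10 cells, and scaled to CPM. Groups came from the labels. The tests used edgeR (4.0.16, quasi-likelihood, robust, TMM, filterByExpr) in R 4.3.3 with Benjamini-Hochberg adjustment over all genes, adjusted p under 0.05 and over 1.5-fold. DESeq2 (1.42.0) was an alternative, as were the filter, cell minimum, class source and each library left out. The code was tested on simulated data. Shares have exact binomial intervals and a floor of 3 counts. Correlations used 100000 permutations. Named genes were the 9 members, the called genes of the pathway list, cluster markers and the 3 genes most like each member over clusters. The members and lists were chosen with earlier results of these data known. Sequences and positions came from RefSeq (GRCm38.p6) and the annotation of NCBIM37. The values of 1 gene of the pathway list are not reported here.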

Additional observations from a re-analysis of the deposited data

Results flagged for a closer look

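In 6 of 38 sets of 4 to 6 libraries tested, 1 library lay far from the others of its treatment. Chance flags about 1 in 20 sets of independent, normally spread values. The sets here are not independent, since the chains go together and most flags share library 12. The 2 rates can therefore not be compared. All flags concern C1q outside microglia. In astrocytes of saline library 12 (222 cells), C1qa stood at 66.4 CPM (60 UMIs, next library 16.9), C1qb at 64.2 CPM (58 UMIs, next 12.7) and C1qc at 49.8 CPM (45 UMIs, next 10.8). In endothelial cells of the same library (410 cells) C1qa stood at 47.2 CPM (89 UMIs, next 20.7). C1qa in endothelial cells of cocaine library 10 stood at 30.01 CPM (332 cells, 45 UMIs, next 14.3). C1qc in astrocytes of cocaine library 4 stood at 28.5 CPM (87 cells, 7 UMIs, next 7.49). By edgeR no member was called for a difference in its cocaine effect between periods, with 2 libraries per group outside astrocytes. In mature oligodendrocytes 1 of 1 tested had an unadjusted p under 0.05. In astrocytes the saline maintenance group was library 2 alone, because library 3 held 8 astrocytes, under the minimum of 10.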

How the results depend on the processing

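Of 522 values obtained for comparisons under alternatives, 499 were as in the report, counts of members within 1.5 times, and 23 were not. No log2 change of a called member reversed. Some that were not called in the report did turn between ages, among them C1qb and C1qc in endothelial cells (0.10 and 0.37 to -1.90 and -1.79 by cluster name) and C1qa in excitatory neurons (-0.10 to 1.88 without P21 library 1). The counts of members called between ages were 0 instead of 6 in microglia with the type from the cluster name or with mismatched cells left out. In endothelial cells they were 1 with all 12 P60 libraries and 2 by cluster name instead of 0, and 0 to 4 when each library was left out (4 without P21 library 1, 1 without library 2). In mature oligodendrocytes there was 1 without the filter (C4b) and 2 by cluster name, and in excitatory neurons 2 by cluster name and 0 to 1 over libraries left out. For cocaine at 15 days in astrocytes there was 1 without the filter. Without library 11 the saline group there rests on library 12 alone. For 15 days against the earlier periods there was 1 in astrocytes without the filter and 0 to 2 over libraries left out, and in endothelial cells 1 with DESeq2 and 0 to 3 over libraries left out, against 2. Leaving out single libraries gave 5 to 6 calls in microglia at 15 days. The causes were not tested.

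Counts over all genes moved more. Between ages they were 29 instead of 1897 in microglia by cluster name or without mismatched cells (1205 to 2318 over libraries left out). In astrocytes they were 64 by cluster name, 49 without mismatched cells, 245 with P21 libraries 2 and 3 summed, 879 without the filter, 952 with all P60 libraries and 176 to 601 over libraries left out, instead of 486. In excitatory neurons they were 5081 instead of 2376 without the fold limit. At 15 days DESeq2 gave 999 instead of 1558 in microglia, 1013 instead of 1532 in astrocytes and 471 instead of 751 in mature oligodendrocytes, and endothelial cells gave 1775 instead of 1111 without the fold limit. For cocaine the counts by period or over all periods were 0 to 24 with the filter and 1 to 103 in those that moved without it, and up to 133 with a library left out. The test of a difference between periods gave 5 to 37 genes without the filter and up to 38 with a library left out, instead of 0.

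The correlation between neuronal and library C1q stayed negative (-0.47 to -0.19 over libraries left out). No paired analysis was possible because replicate numbers in the labels run through the groups in order of accession and name no shared litter, day or batch. Depth limits C3, C4b and Serping1, with 7, 24 and 2 UMIs in P60 microglia.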

Other observations

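The deposited matrices also held 8435 barcodes that the authors did not retain. Of these, 877 held 10 or more C1q UMIs, against 1767 of the retained cells. The split differed by period, with 607 such barcodes not retained and 251 retained at 15 days, 212 and 1190 at the 2 earlier periods, and 58 and 326 at P21. They carry no class and entered no comparison.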
